A study of Mus musculus with 2 samples.

Results

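The genes described here are 10 components of the Notch pathway, picked by symbol from the 27998 genes of the count tables. They are the 4 receptors Notch1, Notch2, Notch3 and Notch4, the 4 ligands Dll1, Dll4, Jag1 and Jag2, and the 2 target genes Hes1 and Heyl, and each symbol matched 1 gene. Single-cell RNA sequencing (10x Genomics 3′ kit) had been run on Tomato+ cells sorted from the healed wound dermis of mice aged 4 to 5 weeks. There was 1 library per condition, each from wounds of several mice, so no difference between the conditions can be tested and all intervals cover counting error only. The control mice carried SM22rtTA, tetO-Cre and R26-Tomato, and the SM22-SmoM2 mice carried SM22rtTA, tetO-Cre and R26-SmoM2/Tomato.

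Doxycycline (20 g/kg) was given to all mice, starting 1 day past wounding. The tissue was collected 3 days past complete closure. Doxycycline lets the SM22 driver, which is active in smooth muscle and in wound myofibroblasts, switch on Cre. Cre then turns on the Tomato label and, in the SM22-SmoM2 mice, SmoM2, an always active form of the Hedgehog (Hh) transducer Smoothened. The label thus marks Cre activity and is not a measure of SmoM2.

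Notch receptors sit in the membrane and bind ligands of the Delta-like (Dll) and Jagged (Jag) families on neighbouring cells. Binding leads to a pair of cuts in the receptor, by an ADAM protease and by gamma-secretase, and the freed intracellular part enters the nucleus and joins the DNA-binding protein Rbpj to switch on genes such as those of the Hes and Hey families. In skin, Notch is best known for epidermal differentiation and for the hair follicle, and in vessels for arterial identity and for the bond between endothelial and mural cells.

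The control library held 2856 cells after filtering and the SM22-SmoM2 library 1792, with medians of 8607.5 and 8837.5 unique molecular identifiers (UMIs, 1 per captured RNA molecule) a cell. Clusters were named from fixed marker lists as fibroblasts (1097 control and 1099 SM22-SmoM2 cells), endothelial (689 and 262), Schwann (678 and 294), mural (285 and 102) and immune cells (83 and 32). Each of these classes had every marker of its own list at 10 CPM or more (UMIs per 1e+06 UMIs) in both libraries, so the sorted "dermal cells" held several lineages. The keratinocyte class, with 16 cells and 1 cell, was not compared. Of the fibroblasts whose sex could be read from Y-linked and Xist UMIs, 74.5% of control and 94.4% of SM22-SmoM2 cells were male. The Hh targets Ptch1 and Gli1, which report pathway activity, were at 12.1 and 5.98 CPM in control fibroblasts and at 147 and 33.1 in SM22-SmoM2 fibroblasts. In endothelial cells Ptch1 was at 15.1 and 20.1, and in mural cells at 7.92 and 27.1.

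A level below, in CPM, is the number of UMIs of a gene per 1e+06 UMIs of all genes in a class of cells, with its 95% exact Poisson interval. A ratio is the log2 of 2 such levels with its exact 95% counting interval, and a gene was called at least 2-fold higher or lower only where it had 50 or more UMIs over both groups of cells. The kit reads 3′ ends, so levels are compared between cells and not between genes.

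The receptors differed in the lineage where each was highest, endothelial cells for Notch1 and Notch4, fibroblasts for Notch2 and mural cells for Notch3. The Notch1 receptor (chr2:26457903-26516663, minus strand, GRCm38), which acts in many tissues, was highest in endothelial cells, at 172 CPM in the control library (163 to 182, 1386 UMIs). Schwann cells followed with 92.3 (83.9 to 101), then mural cells with 68.8 (57.8 to 81.2) and immune cells with 63.9 (46.6 to 85.5), whose intervals overlapped. Control fibroblasts came last with 16.1 (14.1 to 18.4, 229 UMIs). In the SM22-SmoM2 library the endothelial level was 158 (142 to 176), the Schwann level 80.3 and the mural level 68.6, each overlapping the control interval. Fibroblasts of that library stood at 65.4 (61.0 to 70.0, 817 UMIs), apart from the control interval. As a share of the endothelial level, fibroblast Notch1 was at 9.35% and 41.3%. For the 8 endothelial markers the same share ranged from 0.754% to 1.67% in the control library and from 0.563% to 4.61% in the SM22-SmoM2 library, and it was 1.34% and 1.27% for their sum. The highest share in the SM22-SmoM2 library was that of Cdh5, the cadherin of endothelial junctions, which was at 8.52 CPM in control and 27.7 in SM22-SmoM2 fibroblasts, while Pecam1 was at 15.6 and 11.8. Of all Notch1 UMIs, 10.1% (control) and 58.3% (SM22-SmoM2) lay in fibroblasts, a share that also depends on how many cells of each lineage were caught.

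Notch2 (chr3:98013527-98150361, plus strand), a receptor known from mesenchyme, was highest in fibroblasts in both libraries, at 66.7 CPM (62.5 to 71.1) in the control and 86.8 (81.7 to 92.1) in the SM22-SmoM2 library. Fibroblasts held 79.2% and 90.0% of its UMIs. Immune, Schwann and mural cells of the control library had 36.9, 26 and 22.3 CPM, with overlapping intervals. Endothelial cells were lowest in both libraries, with 5.60 and 6.12.

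Notch3 (chr17:32120820-32166852, minus strand), the receptor of vascular smooth muscle and pericytes, was highest in mural cells at 407 (380 to 436) and 413 (364 to 467) CPM. Its endothelial levels were 40.2 and 44.2, and these came mostly from 1 sub-cluster of the endothelial class. Its 10 leading genes, ranked against the median of the endothelial sub-clusters, included the pericyte genes Rgs5, Pdgfrb, Cox4i2 and Higd1b, so it is called mural-led here. Markers shared by all endothelial sub-clusters could not lead in such a ranking. Whether these cells are endothelial, mural or a mix of both was not tested. With 105 control cells and 46 from SM22-SmoM2 mice, that sub-cluster had 159 and 145 CPM of Notch3. Its median depth was 15167 UMIs a cell, against 6479 to 8688 in the 3 larger sub-clusters, and the part of doublets in its level was not tested. It held 282 of the 323 endothelial Notch3 UMIs of the control library, and the larger ones had between 0.52 and 9.74 CPM. Without the mural-led cells, a choice made after seeing the data, endothelial Notch3 was at 6.55 and 3.08 CPM and endothelial Heyl at 3.03 and 2.46, against 11.1 and 13.6 with them. Notch1 was then at 163 and 141 and Dll4 at 86.1 and 64.1. Other endothelial values include these cells unless stated. As a share of the mural level, endothelial Notch3 was at 9.86% and 10.7%, beside 5.92% and 8.42% for the mural marker Rgs5. In fibroblasts Notch3 was at 6.12 and 5.36 CPM.

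Notch4 (chr17:34564268-34588503, plus strand), a receptor of endothelium, was at 34.6 CPM in endothelial cells of both libraries, and these cells held 85.8% and 79.0% of its UMIs. In fibroblasts it had 13 and 11 UMIs, or 2.65% and 2.55% of the endothelial level. The first share was above those of all 8 endothelial markers, and the second was below that of Cdh5, at 4.61%, and above those of the other 7.

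In the control library the ligands fell into an endothelial set and Jag1. Dll4 (chr2:119325784-119335962, plus strand), the ligand of arteries and sprouting tips, was at 85.0 (78.7 to 91.6) CPM in control and 69.5 (59.2 to 81.2) in SM22-SmoM2 endothelial cells, which held 94.7% and 90.9% of its UMIs. Jag2 (chr12:112907819-112929776, minus strand), a ligand related to Jag1, was at 21.9 (18.8 to 25.4) and 11.4 (7.43 to 16.7) in the same cells, with 95.1% and 96.3% of its UMIs there. In fibroblasts Dll4 was at 0.994% and 1.04% of the endothelial level, within the range of the 8 endothelial markers in both libraries. Jag2 was at 0.643% and 0.704%, below that range in the control library and within it in the SM22-SmoM2 library.

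Within endothelial cells, these genes stood highest in the sub-cluster in which all 7 arterial markers were raised and which was led by Gja4, Col8a1 and Sema3g. The arterial-like cells of the control library (145 cells) had 132 CPM of Dll4 (116 to 151), against 46.8 (37.7 to 57.6) in the sub-cluster led by Ccl21a and Ackr1. In the latter all lymphatic markers and 3 venular markers were raised. Notch4 was at 81.3 (68.5 to 95.9) against 9.89 (5.95 to 15.4) in the same sub-clusters. Jag2 was at 45.8 (36.3 to 57.0) against 9.89, and Jag1 at 99.1 (84.9 to 115) against 30.2 (22.9 to 39.0). Dll1 went the other way, with 13.2 (8.35 to 19.8) in the arterial-like cells and 31.2 (23.8 to 40.2) in the Ccl21a and Ackr1 sub-cluster. In a sub-cluster led by Cxcl10, Tiparp and Cdkn1a, with 3 venular markers raised, it was at 44.0 (35.9 to 53.3), apart from the arterial-like cells. In the SM22-SmoM2 library the 34 arterial-like cells had 112 CPM of Dll4 (74.1 to 161) against 37.5 (23.8 to 56.2) in the Ccl21a and Ackr1 sub-cluster, and 83.7 (51.8 to 128) of Notch4 against 17.9 (8.95 to 32.1).

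Dll1 (chr17:15367354-15376872, minus strand), a Delta-like ligand and in the embryo a ligand of somites and neural cells, was at 28.4 CPM in endothelial cells of both libraries. Control fibroblasts had 22 UMIs in 1097 cells, or 1.55 CPM (0.97 to 2.34). SM22-SmoM2 fibroblasts had 94 UMIs, or 7.52 CPM (6.08 to 9.21). Endothelial cells held 84.1% of the Dll1 UMIs in the control and 39.6% in the SM22-SmoM2 library. Fibroblasts held 8.12% and 57.3%, shares that also depend on how many cells of each lineage were caught.

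Jag1 (chr2:137081456-137116644, minus strand), a Jagged ligand found in mural cells, in arteries and in the dermal papilla, was spread over more lineages than the other ligands. In the control library mural cells had 135 CPM (120 to 152), Schwann cells 111 (101 to 121), endothelial cells 54.7 (49.7 to 60.1) and fibroblasts 49.8 (46.2 to 53.7), with the last pair overlapping. SM22-SmoM2 fibroblasts had 114 (108 to 120, 1425 UMIs), within the range of the mural and Schwann levels of that library, at 118 and 112. Their share of all Jag1 UMIs was 35.5% in the control and 78.2% in the SM22-SmoM2 library.

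The target Hes1 (chr16:30064384-30067796, plus strand), a bHLH repressor that also answers to other signals, was seen in every lineage. In the control library it was at 1390 CPM in endothelial cells, 1115 in mural, 932 in Schwann, 765 in fibroblast and 393 in immune cells, with no overlap between neighbours. In the SM22-SmoM2 library the levels were 2024, 1211, 1380, 1287 and 472 in the same lineages. The target Heyl (chr4:123233556-123249875, plus strand), a Hey family repressor, was highest in Schwann cells, at 134 (124 to 145) and 119 (105 to 135), and in mural cells, at 101 (87.6 to 116) and 107 (82.9 to 136). It was at 14 (12.1 to 16.1) in control and 62.1 (57.8 to 66.6) in SM22-SmoM2 fibroblasts. That is 10.5% and 52.0% of the Schwann level.

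**Figure D1:**
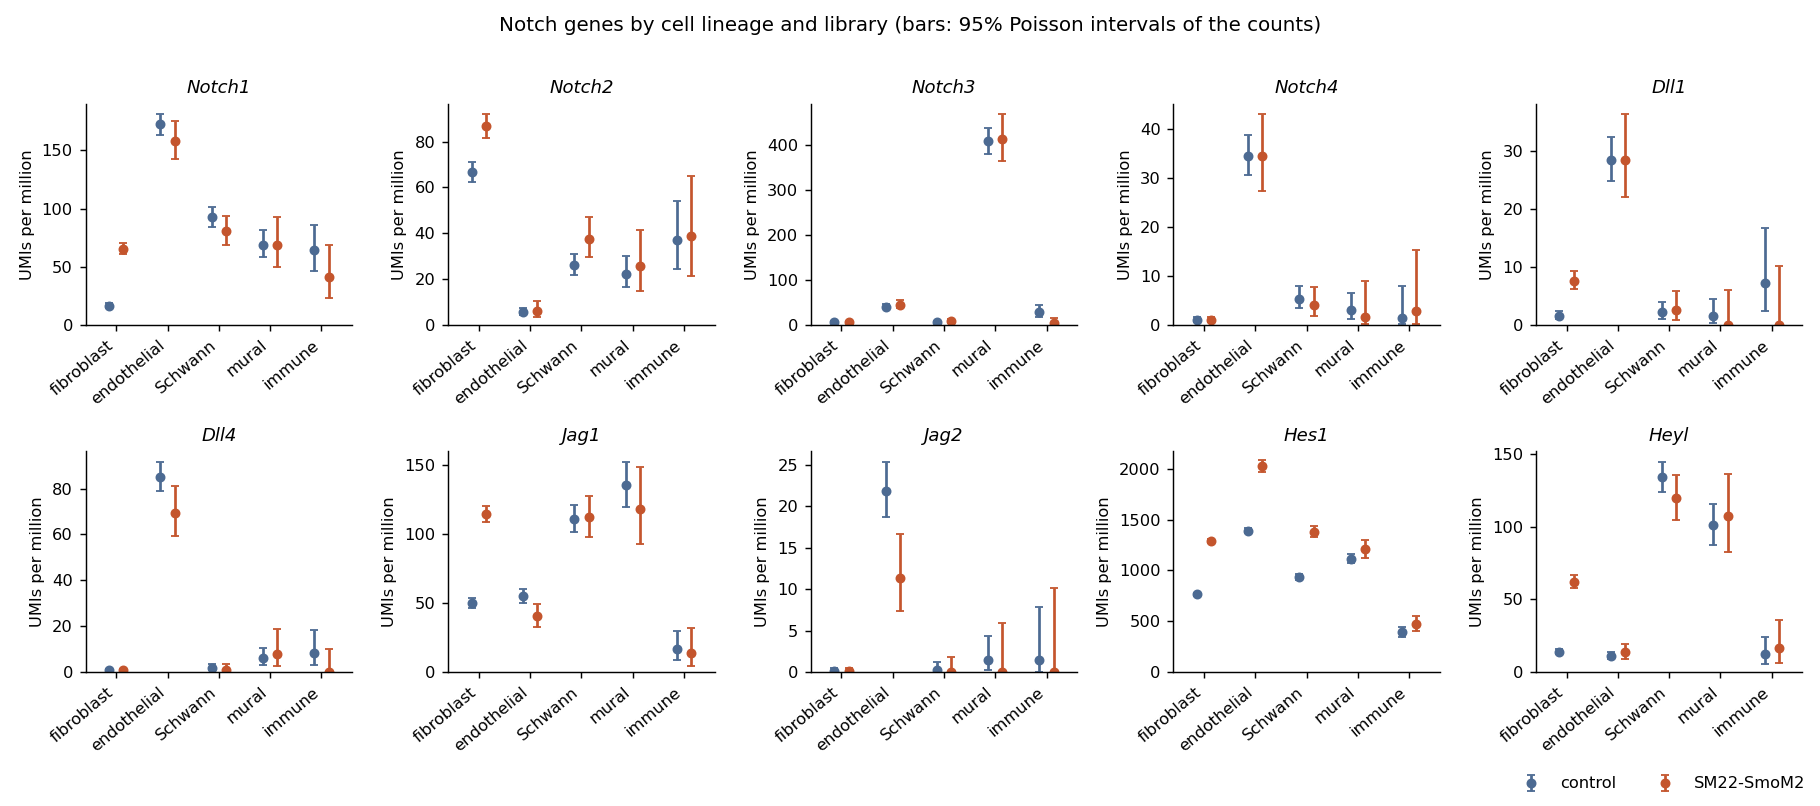
Level of each Notch gene (y axis, CPM, linear from 0, scaled per panel) by lineage (x axis) in the control and SM22-SmoM2 libraries, 1 point per library with its 95% Poisson interval. In fibroblasts the 2 libraries stand apart for Notch1 (16.1 and 65.4), Notch2 (66.7 and 86.8), Dll1, Jag1, Hes1 and Heyl (14 and 62.1), and Notch3 stands at 407 and 413 in mural cells.

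The first comparison set SM22-SmoM2 fibroblasts beside control fibroblasts, to ask which Notch genes differed where Hh signalling was forced on. Of the 7 Notch genes with 50 or more UMIs, 4 were at least 2-fold higher in the SM22-SmoM2 library and 0 were at least 2-fold lower. Of all 11537 genes with as many UMIs, 4.91% were at least 2-fold higher and 4.94% lower, and their median log2 ratio was -0.07, against a median of 1.19 for the 7 Notch genes. The 4 were the receptor Notch1, with a log2 ratio of 2.02 (1.81 to 2.24), the ligands Dll1, with 2.28 (1.60 to 3.02), and Jag1, with 1.19 (1.06 to 1.33), and the target Heyl, with 2.15 (1.92 to 2.38).

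The other 3 stayed within 2-fold. Hes1 had a log2 ratio of 0.75 (0.71 to 0.78), Notch2 of 0.38 (0.25 to 0.51) and Notch3 of -0.19 (-0.67 to 0.28). Notch4, Dll4 and Jag2 had 24, 21 and 3 UMIs over both groups of fibroblasts and were not counted. Summed over their UMIs, the 4 receptors were at a log2 ratio of 0.82 (0.72 to 0.92), the 4 ligands at 1.22 (1.10 to 1.35) and the 2 targets at 0.79 (0.76 to 0.83). The ligand sum was nearly all Jag1 and the target sum nearly all Hes1. Among male cells alone Notch1 had a log2 ratio of 2.18 (1.91 to 2.46), Dll1 of 2.32 (1.46 to 3.30), Jag1 of 1.09 (0.94 to 1.25) and Heyl of 2.28 (2.0 to 2.56).

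In the other lineages 0 counted Notch genes passed 2-fold in either direction. In endothelial cells, where all 10 had 50 or more UMIs, 0.649% of all genes were at least 2-fold higher and 1.53% lower. The log2 ratio nearest to the limit was that of Jag2, at -0.95 (-1.60 to -0.35), and Jag1 was at -0.44 (-0.78 to -0.12). Over 11 other settings the Jag2 ratio ranged from -1.05 to -0.06. The arterial-like sub-cluster, where both genes were highest in the control library, held 145 of 689 control and 34 of 262 SM22-SmoM2 endothelial cells. The part of this mix in the ratios was not tested. Without the mural-led cells 0 of 7 counted genes passed, where 0.592% of all genes were higher and 2.51% lower, and Jag2 and Jag1 were at -0.79 and -0.66. In Schwann cells 5 were counted, against 1.16% of all genes higher and 1.86% lower. In mural cells 6 were counted, against 0.988% and 2.93%, and in immune cells 2, against 2.88% and 6.67%. Notch1 had log2 ratios of -0.12 (-0.29 to 0.04) in endothelial and -0.20 (-0.47 to 0.06) in Schwann cells, intervals that reach neither 2-fold limit. For Heyl they were 0.29 (-0.35 to 0.90) and -0.16 (-0.38 to 0.05).

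Hes1 was higher in the SM22-SmoM2 library beyond fibroblasts, with log2 ratios of 0.54 (0.49 to 0.59) in endothelial and 0.57 (0.50 to 0.63) in Schwann cells, and of 0.12 (-0.00 to 0.24) in mural cells. Immediate early genes, which respond quickly to cell handling and to growth signals, were also measured, from a list chosen after values were seen. In fibroblasts 2 of 7 were at least 2-fold higher, against 4.91% of all genes, Fosb with a log2 ratio of 1.32 and Ier2 with 1.12, and Jun and Junb were both at 0.96. Fos, Egr1 and Atf3 stood at 717, 702 and 93.7 CPM in SM22-SmoM2 and at 598, 526 and 74.8 in control fibroblasts. In endothelial cells the same list ranged from -0.30 for Jun to 0.23 for Fos, and in Schwann cells from -0.64 for Atf3 to -0.03 for Egr1. Their part in the Notch gene levels was not tested.

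**Figure D2:**
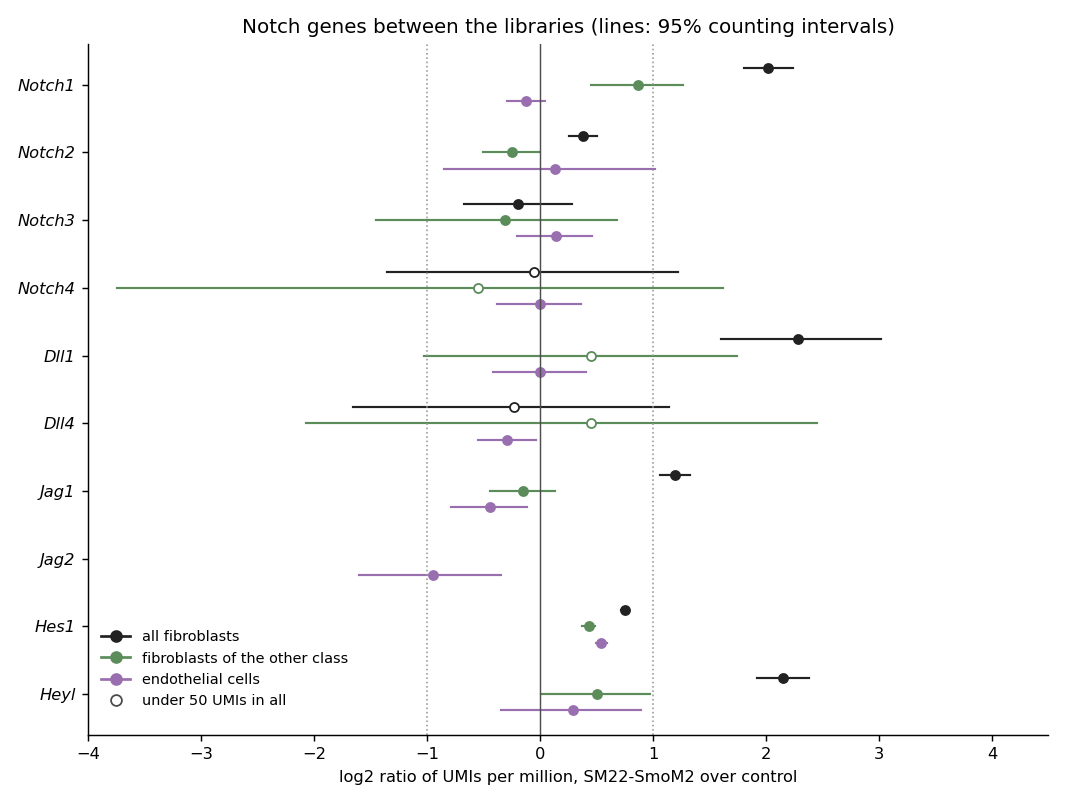
Log2 ratio of CPM, SM22-SmoM2 over control (x axis), for each Notch gene (y axis) in all fibroblasts, in fibroblasts of the other class and in endothelial cells, with 95% counting intervals and dotted lines at 2-fold; open points had under 50 UMIs in all. In all fibroblasts Notch1, Dll1, Jag1 and Heyl lie beyond the right dotted line, at 1.19 to 2.28, and in the other class and in endothelial cells no filled point lies beyond either line.

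Fibroblasts were then split into classes, since the libraries differed in which fibroblasts they held. Clusters were made without the Notch genes and without 5 genes of the Hh pathway. The class called Hh-active-like, from sub-clusters in which at least 3 of these 5 Hh genes were raised, had 739 SM22-SmoM2 and 58 control cells. The class called DP-like, in which all 13 markers of the dermal papilla (DP, the mesenchymal cluster at the base of a hair follicle) were raised, had 46 SM22-SmoM2 cells and 0 control cells. In the DP-like class 4 of the 5 Hh genes were raised as well. Cycling sub-clusters held 70 and 83 cells, and all other sub-clusters, here the other class, 244 and 956.

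The other class was made up differently in each library, with 451 of its 956 control cells but 12 of its 244 SM22-SmoM2 cells in 4 of its 6 sub-clusters. In this class 0 of 6 counted Notch genes passed 2-fold between the libraries, where 1.31% of all genes were higher and 4.82% lower. Notch1 was at 25.0 CPM (19.6 to 31.4) against 13.7 (11.7 to 16.0) in the control, a log2 ratio of 0.86 (0.45 to 1.27). In the shared sub-cluster led by Crabp1 and Igfbp2 it was at 42.6 against 18.9, past 2-fold. Jag1 was at 42.9 against 47.7 and Heyl at 17.2 against 12.2, a pair of ratios of -0.15 (-0.44 to 0.13) and 0.50 (0.01 to 0.97). Hes1 had a log2 ratio of 0.43 (0.37 to 0.49). In the cycling class 1 of 4 counted genes passed 2-fold, Notch1, with 43.1 against 18.2 CPM, where 3.43% of all genes were higher and 6.81% lower. In the cycling sub-cluster that held 67 SM22-SmoM2 and 35 control cells, Notch1 was at 44.6 (32.0 to 60.5) against 38.3 (23.4 to 59.1), and the remaining 48 control cells were in a sub-cluster at 7.27 (2.92 to 15). The 35 control cells had Notch3 at 51.7 CPM. Over the cycling class the 8 mural markers summed to 399 CPM in the control and 240 in the SM22-SmoM2 library, against 118 and 74.4 in the other class. The part of mural RNA in these Notch1 levels was not tested.

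Within the SM22-SmoM2 library, Hh-active-like cells were set beside the other class, and 3 of 6 counted Notch genes were at least 2-fold higher, against 8.46% of all genes, and 0 lower, against 4.57%. Heyl stood at 74.6 against 17.2 CPM, a log2 ratio of 2.11 (1.70 to 2.56). Jag1 stood at 145 against 42.9, a ratio of 1.76 (1.5 to 2.04), and Notch1 at 77.6 against 25.0, a ratio of 1.63 (1.28 to 2.0). Notch2, at 99.0 against 53.7, had a ratio of 0.88 (0.64 to 1.14). Hes1 had 0.34 (0.29 to 0.40), and Dll1, with 24 UMIs against 7, was not counted. From the list of 7 early genes, Ier2, Junb, Jun, Fosb and Atf3 had log2 ratios of 1.80, 1.65, 1.22, 1.10 and 1.07 in the same cells. They stand beside the 8.46% of all genes at least 2-fold higher, and their part was not tested. The endothelial marker Cdh5 was at 38.7 CPM in the Hh-active-like cells and 2.03 in the other class, and the 8 endothelial markers summed to 82.6 and 54.4.

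The 58 Hh-active-like control cells, most of them in sub-clusters led by Penk and Mest (26 cells) and by Sfrp5 and Cldn1 (16 cells), had Notch1 at 61.3 (42.7 to 85.3) and Heyl at 68.3 (48.6 to 93.4) CPM. These intervals overlapped those of the SM22-SmoM2 cells of the class, at 71.7 to 83.9 and 68.8 to 80.7. Jag1 did not overlap, with 85.8 (63.5 to 113) in the control and 145 (137 to 154) in the SM22-SmoM2 cells. The sub-clusters that made up the class differed between the libraries.

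The DP-like cells had the highest levels of several Notch genes among fibroblasts. Set beside Hh-active-like cells of the same library, 4 of 6 counted genes were at least 2-fold higher, where 20.2% of all genes were higher, 9.42% lower and the median log2 ratio of all genes was 0.26. Dll1 was at 188 CPM (143 to 243) against 2.90 (1.86 to 4.32), a log2 ratio of 6.02 (5.31 to 6.77). The 46 DP-like cells held 59 of the 94 Dll1 UMIs of the SM22-SmoM2 fibroblasts. Without DP-like cells the log2 ratio of Dll1 between the libraries in fibroblasts was 0.89 (0.08 to 1.73), within 2-fold, and those of Notch1, Jag1 and Heyl were 1.95, 1.17 and 2.03.

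Heyl was at 256 (203 to 318) against 74.6 in that comparison, a log2 ratio of 1.78 (1.42 to 2.11). Hes1 was at 3913 (3697 to 4138) against 1301, a ratio of 1.59 (1.5 to 1.67), and Notch1 at 192 (146 to 247) against 77.6, a ratio of 1.30 (0.90 to 1.69). Jag1 had 0.35 (-0.06 to 0.73). Notch2, at 63.9 against 99.0, had -0.63 (-1.35 to 0.00). Median depth was 4530.5 UMIs in DP-like and 10552 in Hh-active-like cells. With each cell thinned to the same number of UMIs, Heyl was seen in 28.3% (16.0% to 43.5%) against 9.47% (7.46% to 11.8%) of cells. Dll1 was seen in 26.1% against 0.271%, also apart. Intervals overlapped for Notch1, at 15.2% (6.34% to 28.9%) against 11.6% (9.41% to 14.2%). They also overlapped for Hes1, at 80.4% (66.1% to 90.6%) against 64.5% (61.0% to 68.0%). Of the genes not counted, Notch3 had 9 UMIs against 40, or 28.7 against 4.84 CPM. The 9 UMIs lay in 4 of the 46 cells. The mural marker Rgs5 was at 256 CPM against 29.5, on 80 UMIs in 4 cells, and the 8 mural markers summed to 412 against 86.0, with Myh11 at 0 in the DP-like cells, and their part in the Notch3 level was not tested. From the list of 7 early genes, Fos and Ier2 had log2 ratios of 1.57 and 1.44 in DP-like against Hh-active-like cells. There 20.2% of all genes were at least 2-fold higher, and the part of the early genes was not tested.

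**Figure D3:**
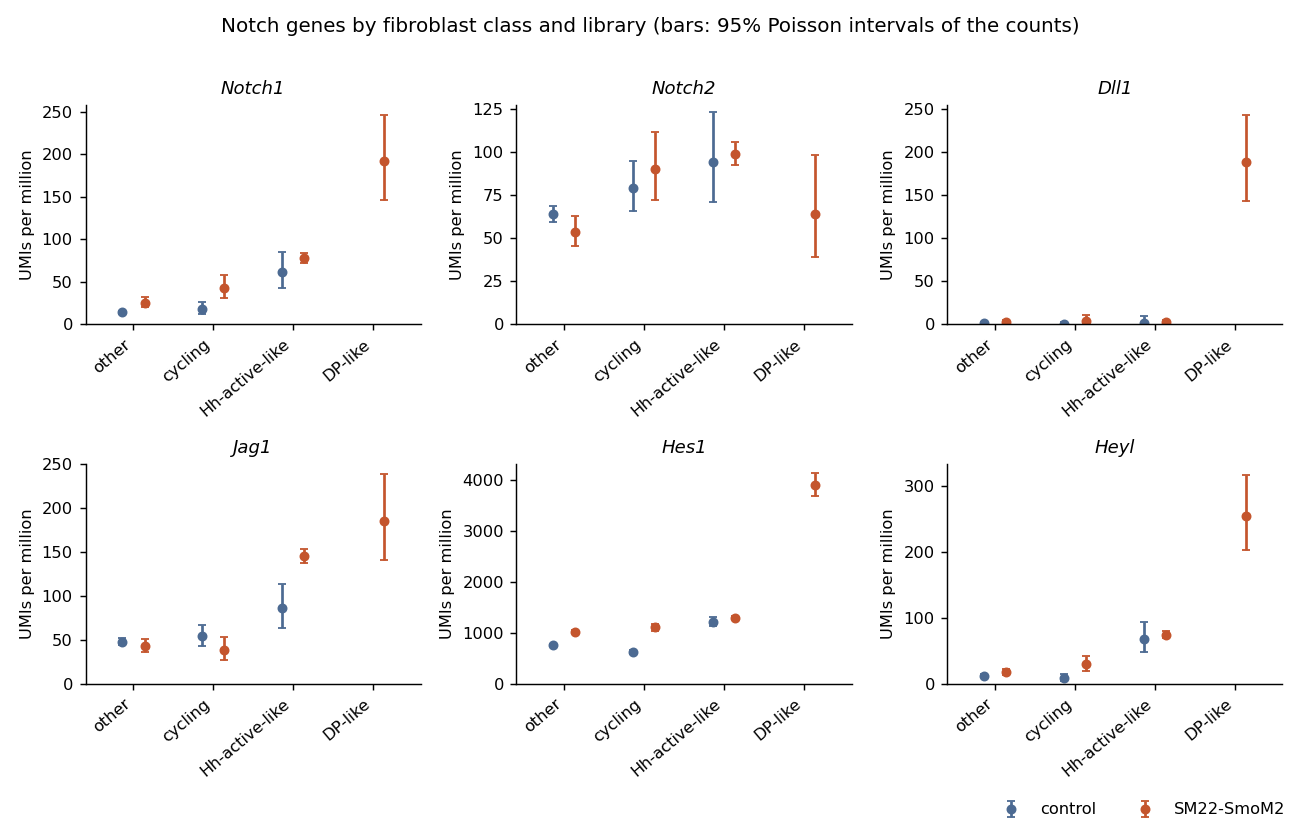
Level of 6 Notch genes (y axis, CPM, linear from 0, scaled per panel) by fibroblast class (x axis) in each library, with 95% Poisson intervals; the control library had 0 DP-like cells. Dll1 is at 188 in DP-like cells and below 5 in every other class, and Notch1, Hes1 and Heyl are highest in DP-like cells.

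The Hh-active-like class was itself uneven. Its SM22-SmoM2 cells fell mainly into 4 sub-clusters, led by Egfl6 and Fam212a (156 cells), by Areg and Mmp13 (183 cells), by Egfl6, Igfbp2 and Penk (135 cells) and by Penk and Mest (205 cells). Notch1 was at 185 (164 to 208), 104 (91.6 to 118), 42.0 (31.6 to 54.8) and 12.9 (8.67 to 18.4) CPM in this order, with no overlap. The first of these intervals overlapped that of the DP-like cells, at 192 (146 to 247). Heyl had the same order, with 197, 96.6, 21.0 and 13.7, and the intervals of the last pair overlapped. Of the 5 Hh genes, 3 were raised in each of the first pair of sub-clusters and all 5 in each of the last pair. The DP-like sub-cluster, with 4 raised, had the highest point values of Notch1 and Heyl. A count of raised genes is no measure of Hh activity, and its relation to Notch1 and Heyl was not tested. Hmox1, Errfi1 and Cebpb were among the leading genes of both sub-clusters of the first pair. A smaller sub-cluster, led by Sfrp5 and Cldn1 (60 cells), also had 5 raised. Jag1 was highest, at 266 (246 to 288), in the Areg and Mmp13 sub-cluster, followed by 136 (118 to 156) in that led by Egfl6 and Fam212a.

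Hes1 did not follow this order. It was lowest, at 516 (487 to 546), in the Areg and Mmp13 sub-cluster and at 840 (794 to 886) in the Egfl6 and Fam212a sub-cluster, and stood at 1805 and 1867 in the remaining pair. In the Penk and Mest sub-cluster, the 26 control cells had Notch1 at 43.6 (22.5 to 76.1) and Heyl at 50.8 (27.8 to 85.3), on 12 and 14 UMIs, above the SM22-SmoM2 cells at 12.9 and 13.7. In that sub-cluster the library difference was thus opposite to the one over all fibroblasts. In the largest shared sub-clusters of the other class, Notch1 was at 42.6 (32.0 to 55.5) against 18.9 (14.4 to 24.4) in the Crabp1 and Igfbp2 cells. It was at 12.8 (7.82 to 19.8) against 14.7 (10.8 to 19.5) in the Mmp3 and Mmp13 cells.

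Notch1 and Heyl were also set side by side within cells, as a description. Cells were not split within sub-clusters, over which both genes had the same order, so the part of that mix was not tested. Of the 1099 SM22-SmoM2 fibroblasts, the 405 with a Notch1 UMI had 119 CPM of Heyl (110 to 129), and the 694 without had 26.3 (22.8 to 30.2), at median depths of 11016 and 10693 UMIs. Within the Hh-active-like cells of that library the levels were 127 (115 to 139) and 35.1 (29.9 to 40.9). In control fibroblasts they were 22.0 (16.7 to 28.3) and 12.2 (10.2 to 14.3). In the 58 Hh-active-like control cells they were 70.5 (40.3 to 115) and 66.9 (42.4 to 100), on 16 and 23 UMIs. Control mural cells were split by Notch3 in place of Notch1, 245 with a UMI and 40 without, at median depths of 5866 and 4539 UMIs. Their Heyl levels were 101 (86.9 to 117) and 101 (61.5 to 155). In SM22-SmoM2 mural cells they were 111 (85.4 to 142) and 60.5 (12.5 to 177), on 64 and 3 UMIs. A mural cell without a Notch3 UMI may still hold its RNA, so this split does not set apart cells that lack Notch3.

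The rest of the pathway was read from a list of 48 other genes, of which 38 had 50 or more UMIs in fibroblasts. Between the libraries 5 were at least 2-fold higher and 1 was lower, against the 4.91% and 4.94% of all genes, and the median log2 ratio was -0.08. Among the 5 was Hes5, a Notch target of the Hes family, with 11.3 against 1.48 CPM and a log2 ratio of 2.93 (2.26 to 3.67). The target Hey1 had 58.3 against 12 and 2.28 (2.03 to 2.52). Nrarp, a target that limits Notch activity, had 33.1 against 7.32 and 2.17 (1.86 to 2.50). Lfng, a glycosyltransferase that shifts receptor preference between ligands, had 1.44 (1.03 to 1.86), and Dtx4, of the Deltex ubiquitin ligase family, 1.05 (0.77 to 1.33). The gene at least 2-fold lower was Dlk1, a Delta-like protein that lacks the receptor-activating domain, with 69.6 against 692 and a log2 ratio of -3.31 (-3.42 to -3.21).

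The next lowest were within 2-fold. Rbpj, the DNA-binding partner, had a log2 ratio of -0.62 (-0.85 to -0.40), and Eogt and Poglut1, which add sugars to receptors, had -0.49 (-1.03 to 0.03) and -0.45 (-0.71 to -0.20). In the other class 0 of 35 counted pathway genes were at least 2-fold higher between the libraries, against 1.31% of all genes, and 1 was lower, against 4.82%. Hey1 was at -0.68 (-1.38 to -0.04), Nrarp at -0.37 (-1.35 to 0.50) and Dlk1, the gene past 2-fold, at -1.75 (-1.88 to -1.63). The class differed in its sub-clusters between the libraries, and a pair with Dlk1 among their 10 leading genes held 248 and 84 control cells but 4 and 0 SM22-SmoM2 cells. In Hh-active-like cells against the other class of the SM22-SmoM2 library, 5 of 35 counted pathway genes were at least 2-fold higher, against 8.46% of all genes, and 1 was lower, against 4.57%. Those higher were Hes5, Hey1, Nrarp, Lfng and Dtx4, with Nrarp at 3.37 (2.58 to 4.30), Hey1 at 3.15 (2.55 to 3.82) and Dtx4 at 1.54 (0.99 to 2.14). Hes5 had 110 UMIs against 1 there, a ratio of 5.30 (2.79 to 10.6). The gene lower was Dlk1, at -3.35 (-3.61 to -3.09). In DP-like against Hh-active-like cells 9 of 35 counted pathway genes were higher and 2 lower, against 20.2% and 9.42% of all genes. Dlk1 had 3.80 (3.40 to 4.20), Hey1 2.44 (2.14 to 2.73) and Hes5 2.26 (1.5 to 2.96), and the lower pair, Numb and Dtx4, rested on 1 and 4 UMIs in the DP-like cells. Mib1, Aph1c, Maml3, Ep300, Fbxw7 and Bcl6 were also at least 2-fold higher there. In endothelial cells 0 of 36 counted pathway genes were at least 2-fold higher, against 0.649% of all genes, and 1 was lower, against 1.53%. It was Dtx2, with 9 against 79 UMIs and a log2 ratio of -1.32 (-2.50 to -0.32).

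**Figure D4:**
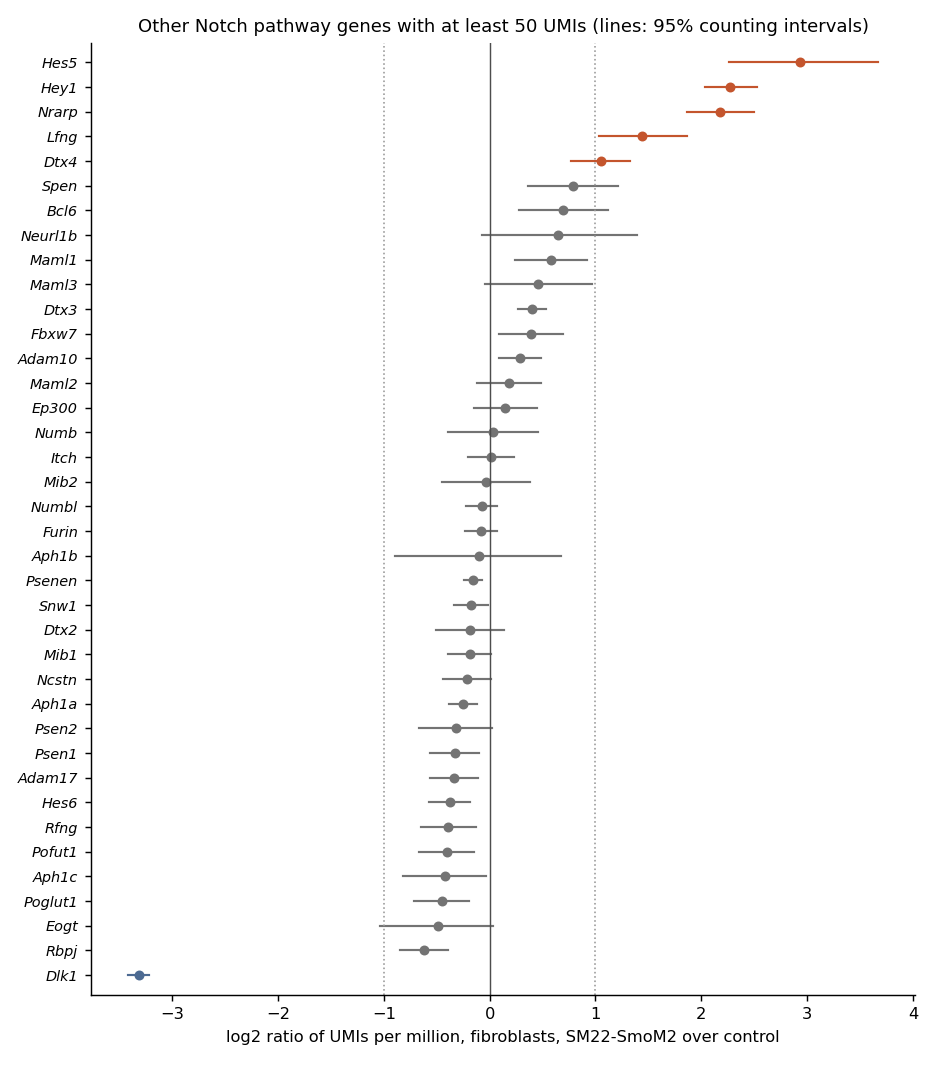
Log2 ratio of CPM in fibroblasts, SM22-SmoM2 over control (x axis), for the 38 other pathway genes with at least 50 UMIs (y axis, sorted), with 95% counting intervals and dotted lines at 2-fold. Hes5, Hey1, Nrarp, Lfng and Dtx4 lie beyond the right line, at 1.05 to 2.93, and Dlk1 beyond the left line at -3.31.

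SM22-SmoM2 fibroblasts were last split by whether a cell had a UMI of Hey1, itself a Notch target of the Hey family that is known from the dermal papilla. There were 312 cells with Hey1, 28.4% of the fibroblasts (exact binomial interval 25.7% to 31.2%), and 787 without, at median depths of 11523 and 10514 UMIs. In the control library 113 of 1097 fibroblasts, 10.3%, had a Hey1 UMI. In the 32 immune cells of the SM22-SmoM2 library, set beside the fibroblasts, the share was 12.5% at a median depth of 9923 UMIs. After thinning each cell to 1500 UMIs the shares were 8.55% of SM22-SmoM2 fibroblasts, 1.37% of control fibroblasts and 3.12% of these immune cells (1 cell). In control immune cells the share was 6.02% of 83 cells and, thinned, 1.2% (1 cell, 0.0305% to 6.53%), close to the thinned share of control fibroblasts. Whether immune cells lack Hey1 was not tested, so their share is no measure of background. Of the cells with Hey1, 80.4% were Hh-active-like and 9.29% DP-like, against 62.0% and 2.16% of the cells without.

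Of 7 counted Notch genes, 3 were at least 2-fold higher in the cells with Hey1, where 1.88% of all genes were higher, and 0 were lower, where 1.34% were. Dll1 was at 14.9 against 4.27 CPM, a log2 ratio of 1.81 (1.19 to 2.45), and 39 of the 57 Dll1 UMIs of the cells with Hey1 lay in 29 DP-like cells. Heyl was at 109 against 41.4, a ratio of 1.40 (1.19 to 1.61), and Notch1 at 108 against 46.5, a ratio of 1.22 (1.02 to 1.42). Notch3, on 30 against 37 UMIs, had 0.88 (0.14 to 1.62), Jag1 0.75 (0.60 to 0.90) and Hes1 0.32 (0.27 to 0.36). Notch2 was lower, at 71.2 against 93.6, a ratio of -0.39 (-0.60 to -0.19). The summed receptors had a ratio of 0.38 (0.24 to 0.51), the ligands of 0.83 (0.68 to 0.97) and the targets of 0.37 (0.33 to 0.42). With cells thinned to 1500 UMIs before they were split, the receptor ratio turned to -0.17 (-0.84 to 0.43) and that of Notch1 was 0.94 (0.13 to 1.68), within 2-fold.

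Set beside all SM22-SmoM2 fibroblasts, the ratios of Notch1 and Heyl were smaller as point values among Hh-active-like and among DP-like cells. In the other class they were larger. The intervals of Hh-active-like cells and of the other class overlapped those of all SM22-SmoM2 fibroblasts. Each class is a part of those fibroblasts and shares UMIs with them, so this overlap does not show whether the ratios differ. Among DP-like cells Notch1 rested on 48 UMIs with Hey1 and 12 without, at 205 (151 to 272) and 151 (78.2 to 264) CPM. The differences between classes were not tested. Among Hh-active-like cells alone, 1 of 5 counted genes passed 2-fold, Heyl, with 110 against 54.3 CPM and a log2 ratio of 1.01 (0.78 to 1.25), where 0.807% of all genes were higher and 0.941% lower. Notch1 had 0.86 (0.63 to 1.08) and Jag1 0.45 (0.28 to 0.61) there, and Dll1, with 17 against 7 UMIs, was not counted. Among DP-like cells alone, Dll1 was at 167 in the 29 cells with Hey1 and 252 in the 17 cells without, a ratio of -0.60 (-1.41 to 0.26), and 0 of 5 counted genes passed 2-fold, against 3.24% of all genes higher and 1.42% lower. In the other class, with 18 cells with Hey1, Notch1 and Heyl were at least 2-fold higher, at 1.61 (0.81 to 2.37) and 1.55 (0.54 to 2.47), and Notch2 lower, at -1.11 (-2.27 to -0.15), where 2.25% of all genes were higher and 4.4% lower. Median depths there were 17133.5 UMIs with Hey1 and 11943 without. Notch3 was at 20.6 CPM in these 18 cells, on 7 UMIs in 2 cells, against 1.15 in the cells without Hey1. The part of doublets or of RNA from other lineages was not tested. Without DP-like cells, Notch1 and Heyl passed 2-fold, at 1.17 (0.96 to 1.38) and 1.32 (1.10 to 1.54), where 1.54% of all genes were higher and 1.48% lower, and Dll1, with 18 against 17 UMIs, could no longer be counted.

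Control fibroblasts with Hey1, whose thinned share was close to that of immune cells, set beside those without had 0 of 6 counted Notch genes past 2-fold, where 1.32% of all genes were higher and 2.22% lower. Notch1 was nearest, with 27.0 against 14.6 CPM and a log2 ratio of 0.89 (0.40 to 1.36), and Heyl had 0.47 (-0.11 to 1.02). Of 34 counted pathway genes in these control fibroblasts, Nrarp was at least 2-fold higher, at 1.14, and Aph1c at least 2-fold lower, at -1.26. In control endothelial cells 0 of 9 counted genes passed 2-fold by Hey1, against 0.872% of all genes higher and 0.301% lower, with Notch4 nearest at 0.83 (0.47 to 1.2). Median depths of these endothelial cells were 14156.5 UMIs with Hey1 and 7503 without. Among the other pathway genes, Hes5, with 2.23 (1.71 to 2.77), and Nrarp, with 1.73 (1.44 to 2.02), were at least 2-fold higher in SM22-SmoM2 fibroblasts with Hey1, out of 35 counted, and 0 were lower, against 1.88% and 1.34% of all genes. They also passed among Hh-active-like cells, out of 33 counted and against 0.807% of all genes, with 1.42 (0.85 to 2.01) and 1.24 (0.94 to 1.54). Fbxw7, which marks the receptor for breakdown, had 0.79 (0.36 to 1.21) and Lfng 0.68 (0.21 to 1.14). At the other end stood Dlk1 with -0.76 (-1.01 to -0.52), Poglut1 with -0.73 (-1.25 to -0.24), Numb, a Notch inhibitor, with -0.70 (-1.51 to 0.05) and Pofut1 with -0.44 (-0.92 to 0.03). The Dlk1 ratio differed in direction between classes. Without DP-like cells it was -1.42, the 1 lower of 34 counted, against 1.48% of all genes. In the other class it was -1.82, the 1 lower of 18 counted, against 4.4%. Among DP-like cells it was 1.46, the 1 gene counted, where 3.24% of all genes were higher.

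**Figure D5:**
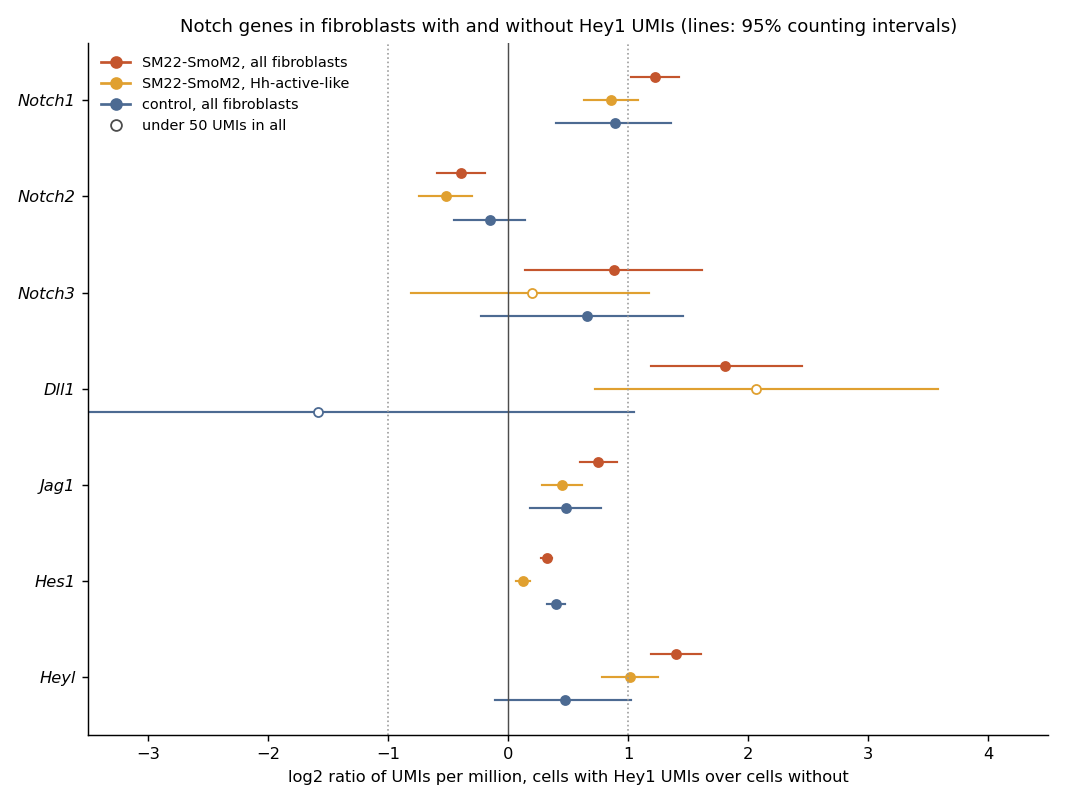
Log2 ratio of CPM, fibroblasts with a Hey1 UMI over fibroblasts without (x axis), for 7 Notch genes (y axis), in all SM22-SmoM2 fibroblasts, in Hh-active-like SM22-SmoM2 fibroblasts and in control fibroblasts, with 95% counting intervals and dotted lines at 2-fold; open points had under 50 UMIs in all. Notch1, Dll1 and Heyl pass 2-fold in all SM22-SmoM2 fibroblasts and Heyl, at 1.01, among the Hh-active-like cells.

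Over the 32 classes made by cluster and library with at least 20 cells, the genes whose level followed each Notch gene most closely were found among 12016 genes by Pearson correlation of log2(CPM + 10). These classes share libraries and neighbouring clusters, and the values are descriptions. Dll4 lay closest to the endothelial factors Sox7 and Sox17, with r = 0.99 for both, and Notch3 to the pericyte genes Cox4i2, Abcc9 and Higd1b, with r = 0.96. Dll1 lay closest to Bmp4, with r = 0.91, Notch2 to Ap2a2, with 0.90, Notch1 to Klf13, with 0.90, and Heyl to Nhp2l1, with 0.89. Notch4 was closest to Magix (0.96), Jag2 to Ptprr (0.97), Hes1 to Pcgf2 (0.82) and Jag1 to Ammecr1 (0.75). Between the Notch genes themselves, Jag2 and Dll4 had r = 0.93, Notch4 and Jag2 0.90 and Heyl and Jag1 0.65, and Notch2 and Dll4 had -0.78.

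The 250 bases before the start sites of the 4 receptors and 4 ligands were in RefSeq promoter windows (GRCm38.p6), and the targets Hes1 and Heyl were not searched. Searched on both strands, 0 of them held TGGGAA, the core letters bound by Rbpj, which 21.6% of all 32851 such windows held, and 0 held GACCACCCA, the letters bound by Gli factors, which 0.225% held. This says only that the letters are not in these windows. The start sites are those of RefSeq transcripts, and the windows of Notch1 and Jag2 and a window of Dll1 lay inside the gene spans given above. Windows of Notch1, Notch2, Notch4, Dll1, Jag1 and Jag2 overlapped exons of the same gene. On the annotation, the spans of Notch1, Notch2 and Jag2 overlapped another gene on the same strand (Mir6996, Gm42819 with Gm42820, and Mir6941). The effect of these overlaps on the counts was not tested.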

How the data were processed

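Sorted Tomato+ wound dermal cells were sequenced as 1 library per condition with the 10x Genomics 3′ v2 kit. Per the labels, the authors made the deposited counts with Cell Ranger on mm10: raw UMI counts per gene and barcode, not normalized. The barcode list could not be tied to the columns of the matrices, so barcodes shared between the libraries were not counted. Barcodes with over 10% mitochondrial UMIs or under 200 genes were left out (22 of 2878 in the control and 10 of 1802 in the SM22-SmoM2 library), which left 3128 to 65167 and 2538 to 38806 UMIs a cell. Doublets were kept, and Scrublet marked 7 and 10 cells (0.245% and 0.558%).

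Cells were clustered by k-means (K = 20, and 15, 5 and 4 within fibroblasts, endothelial and mural cells) on 20 principal components of 2000 variable genes, with the Notch genes, the 48 pathway genes and 5 Hh genes left out. Lineages were named from marker lists. The rules for Hh-active-like (at least 3 of 5 Hh genes raised), DP-like (most of 13 markers) and cycling fibroblasts were set after the clusters were seen. Levels (CPM) are the UMI sum of a gene over the cells of a class, divided by the class total, times 1e+06. Intervals are exact Poisson for levels, exact conditional binomial for ratios and Clopper-Pearson for shares, at 95%, and cover counting error only. With 1 library per condition no test was possible, and each ratio compares these libraries and not the conditions. The members, the lists and the comparisons were chosen with earlier results of these data known. The pathway genes named are those past 2-fold with 50 or more UMIs and the 4 highest and 4 lowest in the fibroblast and Hey1 comparisons. The summing and interval code was tested on simulated data. Python 3.11.15, scanpy 1.11.5, scikit-learn 1.9.0 and scipy 1.17.1 were used.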

Additional observations from a re-analysis of the deposited data

How the results depend on the processing

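No paired analysis was possible because each condition had 1 library, and no library could be left out. Of 543 values of single Notch genes under other settings, 499 stayed within the interval of the reported value, 44 moved beyond it and 0 called values changed sign. The count of Notch genes at least 2-fold higher in fibroblasts was 3 to 4 over 11 settings, and 0 were lower in each. Between the libraries in fibroblasts, thinning to 1500 UMIs gave log2 ratios of 0.97 for the summed receptors and 0.89 for the targets, no mitochondrial filter 1.49 for the ligands, and for the targets Leiden clustering gave 0.87, the mean of the cells' own levels 0.89, male cells alone 0.86 and leaving out DP-like cells 0.71. Without the mural-led endothelial sub-cluster, a setting chosen after seeing the data, endothelial Notch3 turned from 0.14 to -1.09 on 46 UMIs. In endothelial cells 1 gene was at least 2-fold lower with mitochondrial UMIs at most 5%, and in immune cells 1 with the mean of the cells' own levels. The Hey1 split depended most on the setting. Thinning gave -0.17 for receptors, 0.58 for ligands and 0.46 for targets, with 1 gene higher and 1 lower. Hh-active-like cells alone gave 0.13, 0.48 and 0.17, with 1 gene higher. The mean of the cells' own levels gave 0.19 for receptors and 0.68 for ligands, and leaving out DP-like cells 0.28 for targets. With Hey1 status read from 1500 drawn UMIs and levels from the others, a setting chosen after seeing the data like that without DP-like cells, the ratios were 0.68, 1.09 and 0.25, with 5 genes higher. The cause was not tested. Counts under 50 UMIs limited Notch4, Dll4 and Jag2 in fibroblasts.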
